A study of Mus musculus with 6 samples.

Results

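The normal late fetal mouse lung was described here by the level and rank of its genes in 3 whole-lung RNA-seq libraries, chosen as those whose genotype label reads WT, of 6 libraries in the series. The series as a whole addressed Prmt5, an arginine methyltransferase, and its loss from lung mesenchyme through Dermo1 (Twist2). The 3 libraries, called replicates 1, 2 and 3 below, came from lungs of strain C57 at E18.5, late in gestation, with no agent named in their labels. The housing notes shared by all samples speak of pregnant C57 females with Prmt5 knockdown in lung mesenchyme, and the labels do not say whether the wild type embryos carried a Cre or a floxed allele, were littermates, or gave 1 library each. The spread between the libraries may therefore be technical in part. Values listed in threes follow the order of replicates 1, 2 and 3. Levels are the deposited FPKM, the fragments counted for a gene scaled to its deposited exonic length and to the total of that library. This scaling is meant for comparing genes of different length. Ranks between genes depend on that length, and whether it matches the transcripts present was not tested. In replicate 1, for instance, Rps15 had 12188 counts at 1183 FPKM and Rps24 had 8913 counts at 87.1 FPKM.

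Shortly before birth the lung has formed air sacs lined by flat alveolar type 1 cells, across which gas will diffuse, and cuboidal alveolar type 2 cells, which store surfactant lipid and protein to keep the sacs open in air. Conducting airways carry secretory club cells and ciliated cells. Around them lie fibroblasts that deposit elastin and collagen, and a dense capillary network.

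The libraries held 16358478, 14383415 and 15544572 counts, and 24969 to 26432 genes had at least 1 count in a library. The upper limit that a count of 0 allows, 3 counts, corresponded to 0.183 to 0.209 CPM (counts scaled to the library total) and covers counting error only. Prmt5 stood at 11.7, 11.8 and 12.2 FPKM and Twist2 at 0.81, 0.64 and 0.97 FPKM. Replicate 1 differed from the others in sex-linked genes: Xist, whose RNA coats and silences the inactive X, was at 0.12, 76.1 and 82.2 FPKM, and the Y-linked Eif2s3y was at 26.5 FPKM in replicate 1 and without a count in the other libraries. Y chromosome genes together had 5688, 60 and 29 counts. By these genes replicate 1 read as male and replicates 2 and 3 as female. Sex thus runs with every difference between replicate 1 and the others, and its part in them was not tested.

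Replicate 3 stood apart in genes of heart muscle, skeletal muscle, stratified epithelium, thymus and lymphocytes. Over all 14894 genes with a mean of at least 1 FPKM, 303 (2.03%) were more than 2-fold above both other libraries in replicate 3, against 49 (0.329%) in replicate 1 and 63 (0.423%) in replicate 2. Of 24 heart muscle genes, 22 were among those 303. Their summed level was 200.3, 247 and 1628 FPKM. Nppa, which encodes the atrial natriuretic peptide, had 4, 55 and 5193 counts. Skeletal muscle genes summed to 122, 40.1 and 806 FPKM, and genes of oesophagus and other stratified epithelium to 4.11, 3.04 and 236 FPKM. Most of the latter sum in replicate 3 was Krt13 (115 FPKM) and Krt4 (98.7 FPKM). Krt6a, Sprr3 and Dsg3 had counts in replicate 3 only. Krt10 (2.63, 1.64 and 2.19 FPKM) and Lor (0.41, 0.55 and 0.54 FPKM) were not high there. The thymus list summed to 2.00, 1.61 and 19.4 FPKM and the list for T, B and NK cells to 12.1, 6.55 and 97.7 FPKM. Genes of thyroid, gut and kidney summed to 41.7, 1.05 and 57.1 FPKM, almost all of it thyroglobulin (Tg), so that replicate 2 was low there and the other 2 libraries high. In the results below, several counts and list sums that rest on replicate 3 are also given without it, while list medians and means include it. The source of these heart, muscle, epithelial, thymus, lymphocyte and thyroid transcripts, within the lung or beside it, was not tested. Their part in other differences between the libraries was not tested either, apart from the common spread without those lists, given below.

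A total of 13940 of 55359 genes (25.2%) reached 1 FPKM in each library, and 12224 of them were among the 21877 protein-coding genes. No count was found for 25651 genes. Levels fell steeply with rank, as the plot of abundance against rank shows, with 5535 genes at a mean of 10 FPKM or more, 316 at 100 or more and 17 at 1000 or more. Those 17 were 9 protein-coding nuclear genes, 7 genes of mitochondrial DNA and the ribosomal RNA gene Rn18s. The median over genes with a mean of at least 1 FPKM was 6.75 FPKM, the value against which gene lists are read below. The 10 genes with the most counts held 5.48%, 5.43% and 5.10% of each library, and 1333 to 1404 genes together held 50% of it.

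**Figure D1:**
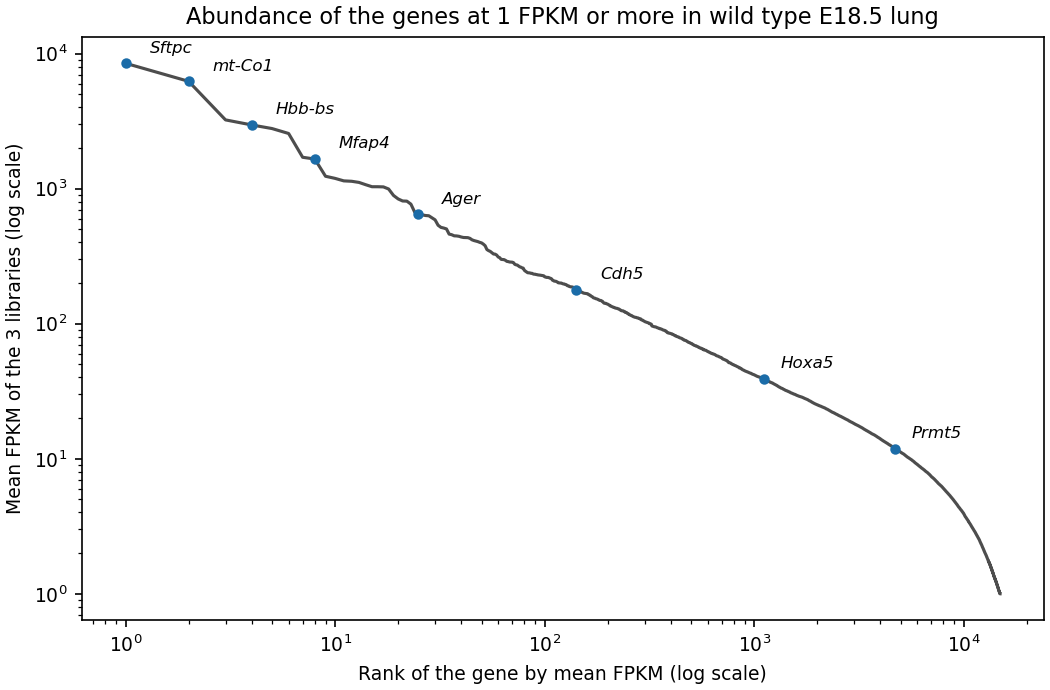
Mean FPKM of the 3 wild type libraries (vertical, log scale) against the rank of the gene by that mean (horizontal, log scale) for the 14894 genes with a mean of at least 1 FPKM, drawn as a line with 8 genes marked by points. Sftpc stands first at 8477 FPKM, mt-Co1 second at 6230, and Prmt5 lies on the shoulder of the curve at 11.9 FPKM.

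Sftpc led the transcriptome. This gene of surfactant protein C (ENSMUSG00000022097; chromosome 14, 70758389 to 70761521, minus strand, in the coordinates of the deposited table, which names no genome build) encodes a small hydrophobic peptide of the surfactant film. It had 142240, 138925 and 123433 counts, or 8409, 9341 and 7679.5 FPKM, with a mean of 8477 ± 833 (SD, n = 3). It was the highest gene per length in every library, though mt-Co1, a longer gene of mitochondrial DNA, had more counts on average. In a bulk lung, more cells of a type and more RNA per cell cannot be told apart, and that holds for each level given here.

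The 20 highest nuclear protein-coding genes fell into a few roles. Alveolar type 2 genes among them were Sftpc, Sftpb (surfactant protein B; chromosome 6, 72281594 to 72291354) at 1126, 1253 and 957 FPKM, and Cxcl15, the lung chemokine lungkine, at 584, 647 and 531 FPKM. Lyz1, a lysozyme gene, was at 1174, 1464 and 787 FPKM and was the most variable of the 20, with a coefficient of variation (CV, the SD as a percentage of the mean) of 29.8%. Replicate 2 was the highest library for all 4 of these genes, against 33.6% of all genes.

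Airway secretory cells were represented by Scgb1a1 (the club cell secretoglobin; chromosome 19, 9061000 to 9065322) at 1203.5, 1172 and 1197 FPKM and by Scgb3a2 at 908, 777 and 745 FPKM. The libraries lay close together for Scgb1a1, whose CV of 1.39% compared with 1.07% from counting alone. The receptor gene Ager, a marker of alveolar type 1 cells on chromosome 17 (34816836 to 34819910), reached 707, 621 and 609.96 FPKM.

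Matrix genes in the same group were Mfap4, a microfibril-associated glycoprotein gene, at 1711, 1736 and 1522 FPKM, and elastin (Eln) at 539, 660.3 and 624 FPKM. Mfap4 was lowest in replicate 3 and Eln lowest in replicate 1. Adult globin genes stood high as well, Hbb-bs at 2696, 3005 and 3185.5 FPKM and Hba-a1 at 1049, 1294 and 756 FPKM, and red cells are the known source of their transcripts. Their ratio was 2.57, 2.32 and 4.21. Hba-a2 was at 106.5, 101.0 and 192 FPKM, highest where Hba-a1 was lowest, and these near-identical genes share most of their sequence.

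The remaining 9 genes are active in most cell types. Elongation factor genes Eef1a1 (2701, 2926 and 2730 FPKM) and Eef2 (912, 902 and 857 FPKM) load and move the ribosome. Ribosomal protein genes Rps15, Rplp0, Rps3a1, Rplp1 and Rpl4 ran from a mean of 1133.5 FPKM for Rps15 to 629.7 FPKM for Rpl4. Rpl4 was the steadiest of the 20 at 634, 629.8 and 625 FPKM. Cytoskeletal genes closed the group, with Tmsb4x, which binds actin monomers, at 1045, 989 and 948 FPKM and Actb at 915, 697 and 691 FPKM.

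Of the 20 genes, 18 were in the top 20 of every library. The same 20 led when any 1 library was left out, when TPM was used and when the median replaced the mean. By counts not divided by length, only 8 of them stayed among the top 20. Long matrix genes then moved up: fibronectin (Fn1) had 84987, 84691 and 76144 counts and the basement membrane collagen gene Col4a1 had 57529, 47666 and 48281.

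**Figure D2:**
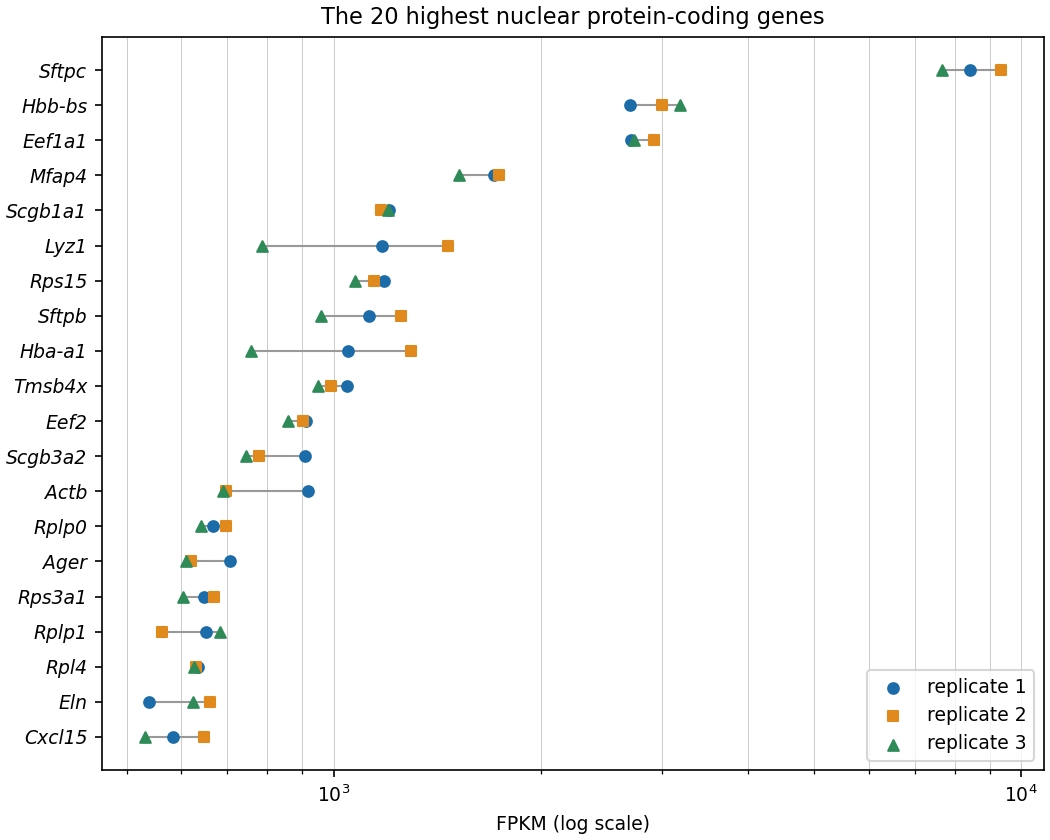
FPKM (log scale) of the 20 nuclear protein-coding genes with the highest mean, 1 symbol per wild type library and a line from the lowest to the highest. Sftpc lies apart from all others at 7679.5 to 9341 FPKM, while Lyz1 (787 to 1464) and Hba-a1 (756 to 1294) span the widest ranges.

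Promoter sequence was compared with level because the highest genes mixed lung-restricted and universal ones. The 250 bases before the transcript start, taken from RefSeq (GRCm38.p6, not converted to the coordinates of the deposited table), were matched by symbol and scanned for the dinucleotide CG, which reads the same on both strands. At least 1 CG was present in 91.7% of all 27025 windows, with a median of 6. The median was 3 for protein-coding genes under 1 FPKM, 15 from 1 to 10 FPKM, 17 from 10 to 100 FPKM and 14 from 100 FPKM. By cell type it was 3.5 for 16 of the 20 alveolar type 2 genes and 2 for 10 of the 14 club cell genes, against 11 for 16 of the 18 alveolar type 1 genes and 17 for 57 ribosomal protein genes. It was 16.5 for 36 of the 55 lung transcription factor genes and 14 for 15 of the 25 nuclear oxidative phosphorylation genes. Endothelial genes had 5 (10 of 20) and heart muscle genes 4 (23 of 24). The letters TATAAA, searched on the strand of the gene from 45 to 16 bases before the start, occurred in 2.36% of all windows. By level it was in 5.49% under 1 FPKM, 1.25% from 1 to 10, 1.32% from 10 to 100 and 4.52% from 100 FPKM, with no steady trend. The windows of 4 of the 20 highest genes are shown as examples, each 5′ to 3′ on the strand of the gene, with every CG in capitals. Of these, Ager lay under the median of its list and Sftpb above that of its list. Sftpb (chr6:72304360-72304609, plus strand) held 7 and Ager (chr17:34597600-34597849, plus strand) held 3, while Eef1a1 (chr9:78481725-78481974, minus strand) held 18 and Rps15 (chr10:80292181-80292430, plus strand) held 14.
Sftpb: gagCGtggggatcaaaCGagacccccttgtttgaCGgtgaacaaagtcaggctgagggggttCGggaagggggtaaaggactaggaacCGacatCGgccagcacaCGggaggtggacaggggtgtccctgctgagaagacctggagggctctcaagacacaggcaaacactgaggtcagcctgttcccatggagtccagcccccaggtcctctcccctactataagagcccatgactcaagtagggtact
Ager: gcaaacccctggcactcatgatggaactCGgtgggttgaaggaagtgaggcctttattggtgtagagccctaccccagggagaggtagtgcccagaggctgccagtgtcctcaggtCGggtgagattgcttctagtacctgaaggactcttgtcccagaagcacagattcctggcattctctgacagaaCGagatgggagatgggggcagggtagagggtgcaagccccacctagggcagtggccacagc
Eef1a1: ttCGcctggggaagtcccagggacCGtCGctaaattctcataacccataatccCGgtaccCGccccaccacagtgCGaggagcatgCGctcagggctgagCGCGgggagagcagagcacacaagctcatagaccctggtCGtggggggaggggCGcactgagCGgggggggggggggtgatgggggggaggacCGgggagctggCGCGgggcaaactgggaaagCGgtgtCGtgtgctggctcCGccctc
Rps15: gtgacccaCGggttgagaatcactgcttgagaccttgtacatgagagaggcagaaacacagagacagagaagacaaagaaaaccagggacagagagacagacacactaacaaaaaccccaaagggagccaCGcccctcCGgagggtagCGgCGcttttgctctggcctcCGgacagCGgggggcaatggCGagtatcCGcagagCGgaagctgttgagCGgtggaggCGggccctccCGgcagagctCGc

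All 20 genes of the alveolar type 2 and surfactant list reached 10 FPKM, with a median of 140.2 FPKM, and 13 reached 100. Its summed level was 12991, 14414 and 11641 FPKM, and 15 of the 20 genes were highest in replicate 2, against 33.6% of all genes. The surfactant protein genes kept 1 order, Sftpc above Sftpb above Sftpa1 (292, 293 and 279 FPKM) above Sftpd (49.2, 48.5 and 47.8 FPKM), and no ranges of neighbours overlapped. Sftpa1 and Sftpd encode collectins, which bind microbes. The ratio of Sftpc to Sftpb was 7.65 ± 0.323 (SD, n = 3).

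Genes that make, load and recycle surfactant lipid were also high. Slc34a2, the phosphate transporter of type 2 cells, was at 499, 606 and 445 FPKM, and Lamp3, a lamellar body membrane gene, at 228, 248.6 and 204 FPKM. Abca3, which pumps phospholipid into lamellar bodies, was at 80.6, 88.1 and 70.1 FPKM. The desaturase genes Scd2 (463, 484 and 393 FPKM) and Scd1 (279, 319 and 179 FPKM) led the surfactant lipid and glycogen list, all 24 genes of which reached 1 FPKM, with a median of 21.8 FPKM. In 18 of its 24 genes replicate 2 was highest, against 33.6% of all genes, and for the genes named here replicate 3 was lowest.

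All 18 alveolar type 1 genes reached 1 FPKM in each library, with a median of 71.3 FPKM. Behind Ager came Cav1, the caveolin of flat cells and endothelium, at 435, 428 and 422 FPKM, then Vegfa, the main growth factor for endothelium, at 308, 286 and 265 FPKM. Hopx, a homeodomain cofactor, was at 209, 229.8 and 210.4 FPKM, and the water channel gene Aqp5 at 52.6, 51.3 and 46.8 FPKM. Replicate 1 held the highest value for 15 of the 18 genes, against 28.6% of all genes, and the summed level was 2721, 2452 and 2406.5 FPKM. Genes of the distal tip progenitor were lower, with a median of 12.6 FPKM. Sox9, a tip regulator, stood at 7.33, 6.47 and 5.90 FPKM, and Etv4, a target of Fgf signalling, was the lowest of the list at 1.83, 1.99 and 1.55 FPKM.

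The club and airway secretory list had a median of 88.0 FPKM. Cbr2, a carbonyl reductase gene, was at 401, 426 and 412 FPKM and Cyp2f2, a cytochrome P450 of club cells, at 114, 120.2 and 140.3 FPKM. Among its 13 genes with a mean of at least 1 FPKM, those over 2-fold apart were Reg3g, an antimicrobial lectin gene (47.7, 21.4 and 30.6 FPKM), and Bpifa1 (0.16, 0.36 and 2.58 FPKM). Only Bpifb1 of the 14 genes had a mean under 1 FPKM. Ciliated cell genes were lower, with a median of 6.51 FPKM. Foxj1, which directs the formation of motile cilia, stood at 24.8, 30.1 and 24.2 FPKM and Tppp3 at 62.2, 63.2 and 66.3 FPKM, and 18 of 19 found genes reached 1 FPKM in each library.

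Basal and neuroendocrine lists lay under the general median, at 0.96 and 0.922 FPKM. In the basal list Krt5, a keratin of basal cells, was at 1.00, 0.32 and 17.7 FPKM and Krt15 at 21.6, 14.9 and 82.4 FPKM. The sum of the basal list in the highest library was 6.74 times that in the lowest, and 1.45 times without replicate 3. Krt13 and Krt4 of the list for oesophagus and stratified epithelium, given for comparison, moved with them at 0.20, 0.27 and 115 FPKM and 0.63, 0.29 and 98.7 FPKM. Chga, a granule protein gene of neuroendocrine cells, was likewise at 0.20, 0.05 and 10.4 FPKM.

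Endothelial genes formed the next large group, with a median of 43.5 FPKM and all 20 genes at 1 FPKM or more in each library. Cdh5, the cadherin of endothelial junctions, led at 192, 174 and 170.5 FPKM, before the tight junction gene Cldn5 at 127, 104 and 104 FPKM and the adhesion gene Pecam1 at 106, 102 and 94.8 FPKM. Replicate 1 was highest for 15 of the 20, against 28.6% of all genes. Flt1, a Vegf receptor gene, was lowest with a mean of 7.71 FPKM. Capillary genes had a median of 37.8 FPKM and arterial and venous genes 13.0 FPKM. Lyve1, a hyaluronan receptor gene of lymphatic vessels, was at 78.6, 91.1 and 71.7 FPKM, but Prox1, the regulator of lymphatic identity, only at 1.19, 1.05 and 1.93 FPKM.

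Fibroblast, pericyte and smooth muscle lists lay above the general median. Lipofibroblast and alveolar fibroblast genes had a median of 60.1 FPKM, led by Mfap4 and followed by Gyg (glycogenin) at 236, 250.5 and 201.5 FPKM and by Tcf21, a transcription factor of lung fibroblasts, at 182, 180.5 and 146 FPKM. Inmt, a methyltransferase gene, was more than 2-fold higher in replicate 2 than in the others, at 21.3, 73.9 and 21.6 FPKM. Adventitial fibroblast genes had a median of 30.1 FPKM, pericyte genes 30.3 FPKM and myofibroblast and smooth muscle genes 24.3 FPKM. Acta2, smooth muscle actin, stood at 122, 138 and 148 FPKM, and Des (desmin), which heart and skeletal muscle also use, at 18.4, 14.6 and 44.7 FPKM.

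All 36 genes of the elastic fibre and interstitial matrix list reached 1 FPKM in each library, with a median of 42.2 FPKM. Sparc, a collagen-binding protein gene, was at 477, 496 and 536 FPKM and Fn1 at 445, 504 and 419 FPKM. Lox, which crosslinks elastin and collagen, was at 133, 158 and 136 FPKM. Of 44 collagen genes, 33 reached 1 FPKM in each library. Col4a1 (471, 444 and 416 FPKM) lay above all others, and the ranges of Col6a1 and Col4a2 overlapped, as did those of Col3a1 (166, 192 and 224 FPKM) and Col1a1 (165, 198 and 198 FPKM). The ratio of Col4a1 to Col4a2, which form a joint trimer, was 1.42 ± 0.0213 (SD, n = 3). Laminin chains were ordered Lamc1 (132, 130.02 and 134 FPKM), Lama5, Lamb2, Lamb1, with each range apart from the next.

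Blood and immune genes varied in level by cell type. Of the macrophage and monocyte list, 22 of 24 genes had a mean of at least 1 FPKM and the median was 3.77 FPKM. Behind Lyz1 and Lyz2, which type 2 cells also express, the complement gene C1qa stood at 15.5, 16.3 and 16.0 FPKM and the receptor gene Csf1r at 6.78, 5.78 and 6.32 FPKM. Lymphocyte genes were at 3.25 FPKM or less outside replicate 3: Trbc2, a T cell receptor constant gene, was at 1.15, 0.60 and 34.8 FPKM, and Rag1, which rearranges receptor genes in the thymus, at 0.26, 0.03 and 10.3 FPKM. Globin genes together made up 0.310%, 0.362% and 0.323% of counts, and embryonic Hbb-y was low, with Hbb-bs at 762 times its level on average.

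**Figure D3:**
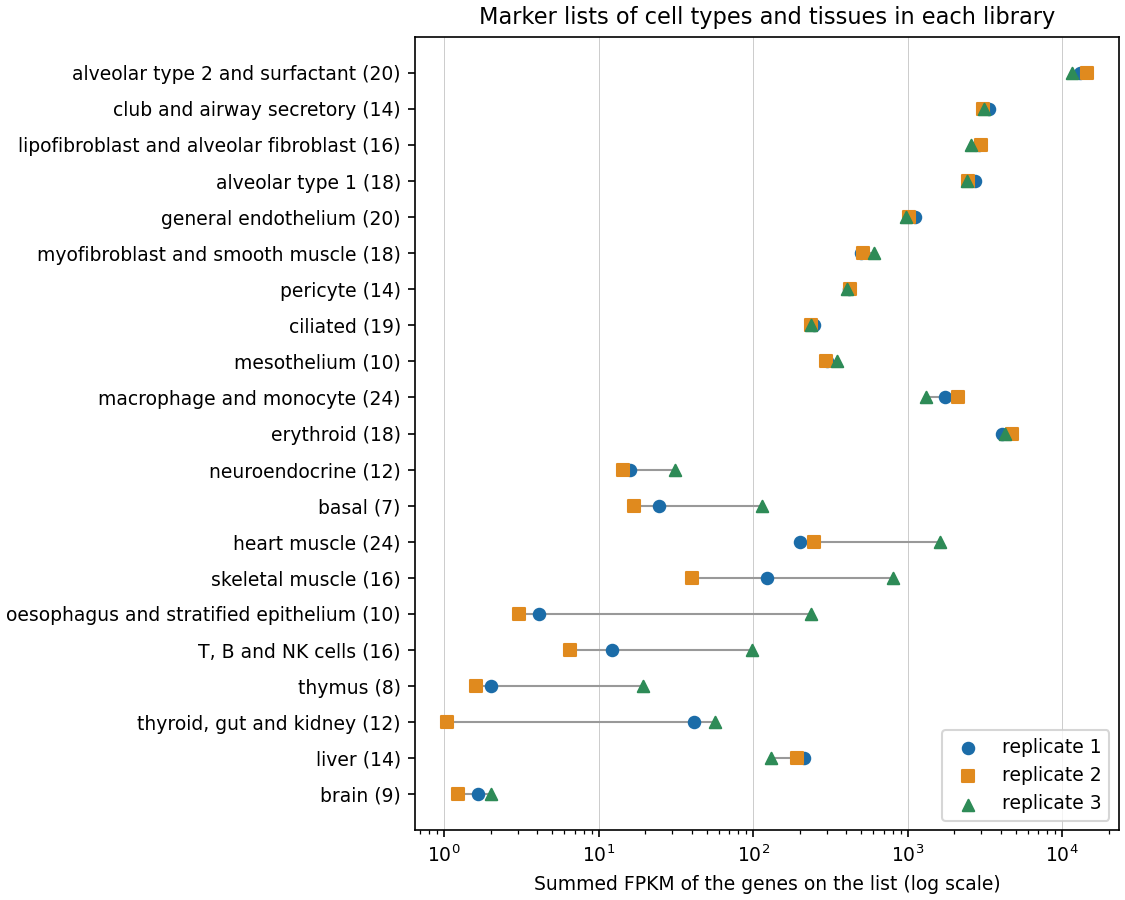
Summed FPKM (log scale) of 21 marker lists, 1 symbol per wild type library and a line from the lowest to the highest, with the number of genes found in brackets. The alveolar type 2 list lies between 11641 and 14414, whereas the basal list runs from 16.9 to 114, the heart muscle list runs from 200.3 to 1628 and the list for stratified epithelium from 3.04 to 236.

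Transcription factors were ordered by level. Of 55 lung transcription factor genes, 53 had a mean of at least 1 FPKM, with a median of 23.4 FPKM. After Hopx, the highest were Tcf21, Nkx2-1 (174, 184 and 146 FPKM), which defines lung epithelium, and Tbx2 (174, 151 and 144 FPKM). Foxf1, a regulator of lung mesenchyme and endothelium, was at 98.2, 84.4 and 85.7 FPKM and lay above every other Fox gene. Within the Tbx family neighbours had ranges apart at each step from Tbx2 over Tbx4 (63.9, 62.9 and 53.3 FPKM), Tbx5 (32.4, 31.8 and 33.1 FPKM) and Tbx3 to Tbx1 and Tbx6. Tbx20 came next at 0.35, 0.89 and 3.37 FPKM, above 1 FPKM in replicate 3 only. Sox18 and Sox4 overlapped at the head of the Sox family, as did Gata2 and Gata5 at the head of the Gata factors. Twist2 and Rarb were the members under 1 FPKM.

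Hox genes, which mark position along the body axis, were sharply unequal. Of 39 genes, 13 reached 1 FPKM in each library and 11 had no count. Hoxa5, known for its role in lung and airway formation, stood at 41.3, 40.6 and 35.0 FPKM and made up 40.7% of the summed Hox level. Hoxb4 followed at 9.89, 8.89 and 8.65 FPKM. It lay above Hoxa2 (8.44, 8.66 and 7.94 FPKM) in each library, though their ranges overlapped. No gene of the Hoxc and Hoxd clusters had a mean of 1 FPKM, and Hoxc4 passed that level only in replicate 3, at 1.10 FPKM.

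**Figure D4:**
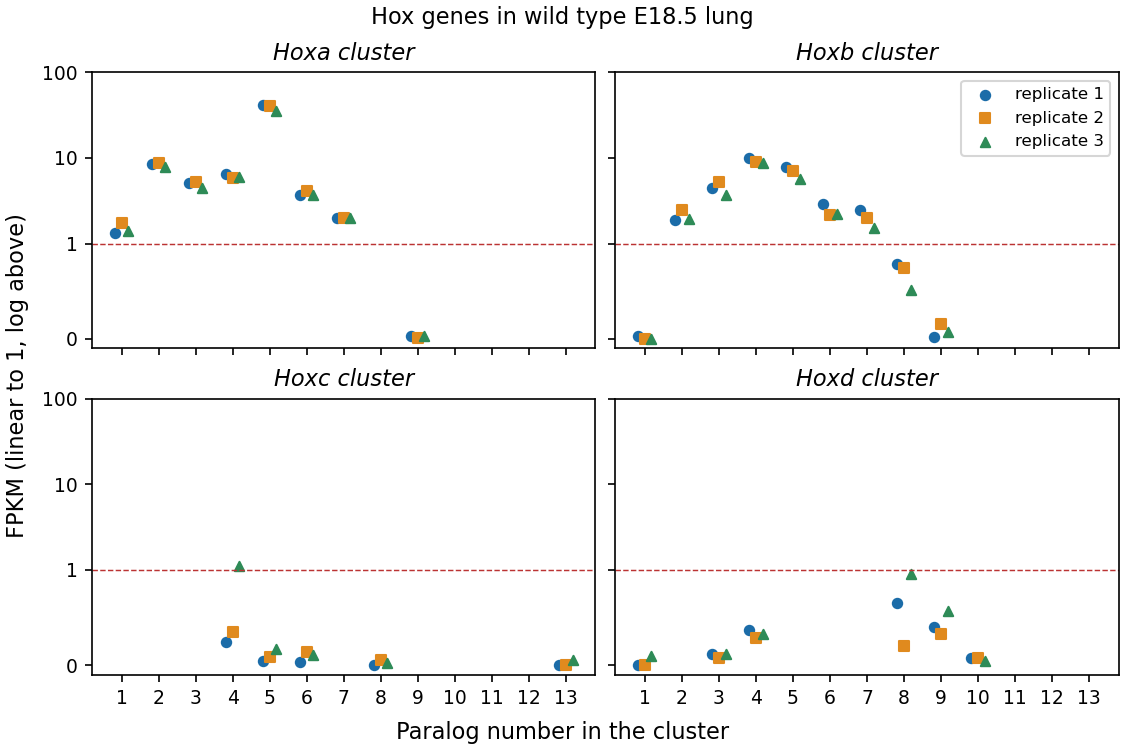
FPKM (linear up to 1, log above) of the Hox genes with a count, by cluster and paralog number, 1 symbol per wild type library, with a dashed line at 1 FPKM. Hoxa5 stands highest at 35.0 to 41.3 FPKM, and the genes above the line lie in the Hoxa and Hoxb clusters between paralogs 1 and 7, apart from Hoxc4 in replicate 3.

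Several signalling families had a leader whose range lay apart from the next gene. Vegfa made up 80.4% of the summed Vegf level, followed by Vegfd (47.3, 43.6 and 39.6 FPKM), Vegfb, Vegfc and Pgf, with ranges apart at each of the 4 steps. Among 19 Wnt ligand genes, 8 reached 1 FPKM in each library, and mesenchymal Wnt2 (25.5, 22.0 and 20.5 FPKM) lay above Wnt5a (8.22, 8.84 and 8.54 FPKM) and Wnt3a (6.89, 6.32 and 6.34 FPKM). Frizzled receptors for these ligands were led by Fzd2 at 31.7, 31.8 and 28.5 FPKM. Fgf1 (40.3, 33.7 and 37.1 FPKM) was the highest of 22 Fgf ligand genes, above Fgf10 (16.9, 17.0 and 15.1 FPKM), the mesenchymal ligand that drives branching. Fgfr3, Fgfr2 and Fgfr4 had neighbouring ranges that overlapped, between 29.1 and 43.7 FPKM, but kept that order in each library. Fgfr1 was lower at 8.91, 8.05 and 8.79 FPKM. Bmp4 was at 26.1, 21.3 and 23.9 FPKM, and Tgfb2 and Tgfb3 could not be ordered. Pdgfrb, the receptor of pericytes, lay above Pdgfra at 57.01, 55.8 and 49.6 against 22.5, 23.2 and 22.3 FPKM.

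Genes that move ions and water, by which the lung secretes and then clears its fluid, had a median of 18.8 FPKM. Aqp1, the water channel of endothelium, was highest at 218, 209.9 and 239 FPKM. The epithelial sodium channel takes sodium up through a pore of different subunits, and its alpha subunit gene Scnn1a (92.6, 100.2 and 92.0 FPKM) lay above Scnn1g (41.1, 31.5 and 35.2 FPKM) and Scnn1b (20.0, 18.7 and 17.8 FPKM). The chloride channel gene Cftr was at 6.52, 6.32 and 5.95 FPKM. For glucocorticoids, the hormones that mature the fetal lung, the receptor gene Nr3c1 stood at 34.7, 32.1 and 34.7 FPKM. Hsd11b1, whose enzyme activates glucocorticoid, was at 39.8, 41.3 and 35.1 FPKM, and Hsd11b2, whose enzyme inactivates it, at 0.60, 0.34 and 0.52 FPKM. The arginine methyltransferase list had a median of 4.49 FPKM, with Prmt1 (18.3, 17.9 and 21.4 FPKM) above Prmt5, and Wdr77, the binding partner of Prmt5, at 7.64, 7.97 and 7.52 FPKM.

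Among nuclear genes with a noncoding RNA biotype in GENCODE M21, which leaves out pseudogene biotypes and Rn18s, H19, an imprinted RNA, was highest at 614, 551 and 1259 FPKM and more than 2-fold above both others in replicate 3. Meg3, also imprinted, was at 149, 176 and 127 FPKM, nuclear Malat1 at 153, 130.5 and 162 FPKM, and Fendrr, which is transcribed beside Foxf1, at 147, 131 and 124 FPKM. Mir5125 was listed at 275, 91.5 and 253 FPKM over an exonic length of 79 bases. The other members of the 10 highest were Gm10076, Gm43085, Sfta3-ps, 2410006H16Rik and Gm29237. Their means ran from 220.3 FPKM down to 63.6 FPKM for Gm29237.

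The spread between libraries was small for most genes and depended on level. The median CV over all genes with a mean of at least 1 FPKM was 7.96%. It was 10.2% for the 9359 genes from 1 to 10 FPKM, where counting alone gave 6.80%, and 5.56% for the 5219 genes from 10 to 100 FPKM, where counting gave 2.83%. From 100 to 1000 FPKM it was 6.49% (counting 1.245%) over 299 genes and from 1000 FPKM 9.97% (counting 0.538%) over 17 genes. The median was thus higher over these 17 genes than from 10 to 100 FPKM. They are few, and 7 genes of mitochondrial DNA and Rn18s are among them. Spearman correlations over 14894 genes, which are not independent replicates, were 0.978 for replicates 1 and 2, 0.964 for 1 and 3 and 0.958 for 2 and 3.

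More than 2-fold between the highest and lowest library lay 1007 of 14894 genes (6.76%), and 428 without replicate 3. A chi-square test of the counts of each gene over the 3 libraries, with Benjamini-Hochberg adjustment, found 6153 of 17456 genes (35.2%) to differ beyond counting noise, and 2791 without replicate 3 and 3802 without replicate 2. The common biological coefficient of variation from edgeR, the spread left after counting noise, was 15.6%, and 10.5% without replicate 3. It was 14.3% without the lists of heart, skeletal muscle, basal, stratified, thymus, lymphocyte and thyroid, gut and kidney genes, an unplanned alternative. Without the heart muscle, erythroid and sex-linked lists it was 14.9%. With the same mean of at least 10 FPKM and those symbols left out, the steadiest gene was Palld, an actin-binding protein gene, at 29.72, 29.70 and 29.65 FPKM. The next were Mapkap1, Ube4b, Wdr5, Mon2, Gps2, Ywhag, Josd1, Rab40c and Pank3. The CVs of these 10 genes were at most 0.247%, under what counting noise alone gives.

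The most variable genes at that level were mostly muscle genes. With Gm-numbered, Rik and -ps symbols left out, 14 of the 15 with the largest CV were more than 2-fold higher in replicate 3 than in both others: Psca, Krt13, Krt4, Nppa, Trbc2, Rpl34 and the muscle genes Atp2a1, Myl1, Myh8, Acta1, Tnni2, Tnnt3, Ckm and Mylpf. Mylpf, a fast muscle myosin light chain gene, was at 27.3, 8.90 and 157 FPKM. The exception was 7SK, a small nuclear RNA that restrains transcription elongation, at 75.9, 1.89 and 2.72 FPKM. Other structural RNAs, chosen after their values were seen, were high in replicate 1 as well: Rn18s at 4110, 522 and 490 FPKM and U1 at 25.7, 0.42 and 1.57 FPKM.

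Several gene groups were tilted to a library without passing 2-fold. All 25 nuclear oxidative phosphorylation genes and all 20 mitosis genes were highest in replicate 3, against 37.7% of all genes. Mki67, a marker of cycling cells, was at 21.6, 18.3 and 28.1 FPKM and Atp5b, an ATP synthase subunit gene, at 124, 124 and 165 FPKM. In 16 of 18 interferon-stimulated genes replicate 1 was highest, against 28.6% of all genes. The 24 heart muscle genes were all highest in replicate 3 too, and their part in these tilts was not tested.

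Several genes known to be abundant in most cells were low in the table. Gapdh, a glycolysis gene, was at 2.74, 2.84 and 4.25 FPKM, Ppia, a prolyl isomerase gene, at 4.55, 4.12 and 5.48 FPKM, and the mitochondrial cytochrome oxidase gene mt-Co2 at 49.2, 55.1 and 73.2 FPKM beside a mean of 6230 FPKM for mt-Co1. Reads that match more than 1 gene are often left out or split by counting programs, and the sources used here do not give the setting for these libraries. The share of the 75-base words of each gene that also occur in transcripts of another gene was therefore computed from the GENCODE M21 transcripts. It was 22.6% for Gapdh, 15.05% for Ppia, 99.5% for mt-Co2, 99.5% for mt-Atp6 and 99.9% for mt-Co3, against 39.8% for mt-Co1 and 0% for mt-Cytb. The median level of mitochondrial DNA genes was 1051 FPKM for the 8 with under 10% of words shared and 30.9 FPKM for the 6 with at least 50%. In the group with under 10% shared, mt-Atp8, with 0%, stood at 22.8, 13.97 and 36.0 FPKM. In the group with at least 50%, mt-Nd4, with 61.5%, stood at 967, 989 and 1134 FPKM. Other sets went either way. The same 2 medians were 7.97 and 3.69 FPKM for nuclear protein-coding genes at 1 FPKM or more. They were 154 and 236 FPKM for those at 100 FPKM or more, and 65.7 and 264 FPKM for ribosomal protein genes.

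Lung cell markers were close to other genes in shared words. Under 10% were shared for 10900 of 12660 nuclear protein-coding genes at 1 FPKM or more, and for 17 of 18 alveolar type 1 genes, 17 of 20 alveolar type 2 genes, 14 of 14 club cell genes and 18 of 20 endothelial genes. Of the 20 highest genes 13 had under 10% shared, and Hba-a1 (67.9%), Rps3a1 (60.6%) and Hbb-bs (51.5%) at least 50%. Ribosomal protein genes had a median of 18.3%, and some of their processed copies stood above them: Rpl34 was at 2.24, 1.79 and 29.35 FPKM, high in replicate 3 alone, and Rpl34-ps1 at 397, 413 and 196 FPKM. Tpt1 had a mean of 72.7 FPKM against 839 FPKM for Tpt1-ps3. Levels of genes with many shared words, such as the adult globins and mt-Co2, are uncertain, as is that of Igf2, which overlaps other genes. The part of shared words in these levels was not tested.

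**Figure D5:**
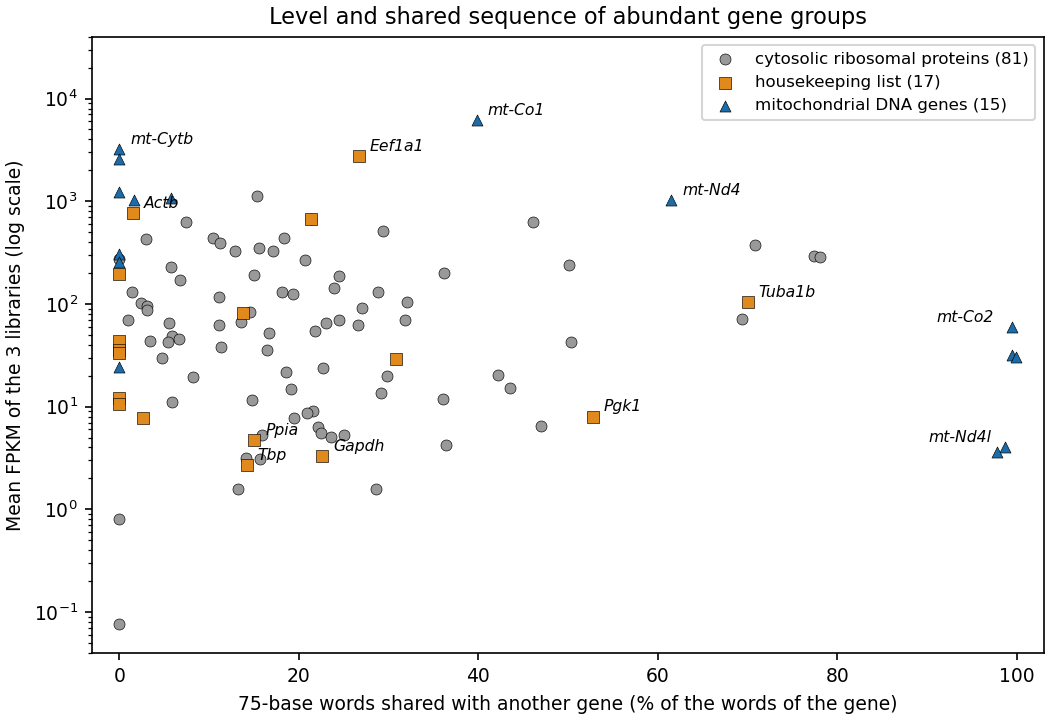
Mean FPKM of the 3 wild type libraries (vertical, log scale) against the share of 75-base words found in transcripts of another gene (horizontal, percent), 1 symbol per gene of 3 groups. Mitochondrial DNA genes with little sharing reach 3229 FPKM (mt-Cytb), those near 100% lie at 3.63 to 59.2 FPKM, and Gapdh lies at 3.28 FPKM.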

How the data were processed

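Libraries were made from poly(A) RNA with random priming and sequenced from both fragment ends, per the labels' protocols. HISAT2 2.0.1, HTSeq 0.6.1 and cutadapt 1.9.1 appear in the submitters' processing notes, with no role or parameter. A genome build, a strand option and the handling of multi-mapped reads were not given in the sources used here. Raw counts per gene and library were deposited by the authors. The deposited FPKM values, per the file headers, were recomputed from the count, the library total and the exonic length, and matched within 0.005. No row lacked a gene name, and no column of other samples was used.

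Computed here were means, SDs, CVs, ranks, list medians and sums, and the order of genes in 31 families, in which neighbours were called apart where their ranges over the 3 libraries did not overlap. The common dispersion came from edgeR 4.0.16 in R 4.3.3 with TMM scaling and filterByExpr, and counts were compared by chi-square with 2 degrees of freedom over genes with a mean count of at least 10, at an adjusted p under 0.05. Scripts were tested on simulated data. Size factors from DESeq2 1.42.0 were an alternative, as were other thresholds, units, filters and leaving out each library. Biotypes came by identifier from GENCODE M21 (52083 of 55359 genes). Sharing of 75-base words, exact on either strand over 51315 matched genes, was added after the data were seen.

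The members and the 48 gene lists (783 of 787 genes found) were chosen with earlier results of these data known. Named genes were the 20 highest by FPKM and 10 by counts, the 10 highest noncoding, up to 5 leading members, the lowest and those under 1 FPKM of a list or family, the 15 most and 10 least variable at 10 FPKM or more (without Gm-numbered, Rik and -ps symbols), Prmt5, Twist2, sex-linked genes and tissue markers. Other genes were chosen after their values were seen. The knockdown libraries were not analysed here.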

Additional observations from a re-analysis of the deposited data

How the results depend on the processing

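The number of genes at 1 FPKM or more in each library, 13940, became 8362 at 5 FPKM, and lay between 14131 and 14298 with a library left out. The share of counts in the 10 leading genes, 5.34%, was 4.63% without mitochondrial DNA genes, and the 10 leading genes by FPKM held 11.9% of summed FPKM. Of the 20 highest genes, 8 stayed by CPM and 13 when only genes with under 10% shared words were ranked, an alternative chosen after seeing the data. Genes over 2-fold apart, 1007 in all, were 194 at a mean of at least 5 FPKM, 5798 at 0.1 FPKM or more and 456 among protein-coding genes, and 428 (without replicate 3) to 767 (without replicate 1) with a library left out. Genes past counting noise, 6153 in all, were 2791 (without replicate 3) to 4856 (without replicate 1). Lists whose sum differed over 2-fold, 8 in all, numbered 2 to 8, with 2 left without replicate 3. Lists with a median above the general median, 29 in all, numbered 26 without replicate 3 and 30 without replicate 2. Without replicate 3 the highest library over the lowest fell to 1.23 for heart muscle, 3.06 for skeletal muscle, 1.35 for stratified epithelium, 1.85 for T, B and NK cells, 1.24 for thymus and 1.45 for basal genes. Without replicate 2 it was 6.58 for skeletal muscle, 8.05 for T, B and NK cells and 1.37 for thyroid, gut and kidney. Fewer genes or libraries entered most of these counts, and otherwise the cause was not tested. The common biological coefficient of variation lay between 10.5% and 20.6%. Depth limited genes from 1 to 10 FPKM most, where counting alone gave a CV of 6.80%. No pairing of samples was possible because the 3 libraries form 1 group.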

Other observations

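Several families not described above had clear leaders. Mmp2, a gelatinase gene, led the matrix metalloproteinases at 84.3, 75.4 and 77.1 FPKM, and Mmp14, whose product activates it, followed at 59.7, 63.8 and 56.9 FPKM, with ranges apart at each of the 7 steps of that family. Itgb1, the integrin beta chain that pairs with many alpha chains, made up 47.7% of the summed integrin level at 223, 228 and 228 FPKM. Among epithelial keratins Krt19 (124, 114 and 136 FPKM) lay above Krt8 and Krt18, whose ranges overlapped. Cldn18, a tight junction gene of alveolar type 1 cells, led the claudins at 160.3, 119.98 and 106 FPKM. Its range overlapped with that of Cldn5, though it lay above Cldn5 in each library. None of 1116 odorant receptor genes reached 1 FPKM and 1015 had no count.

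The imprinted list had a median of 15.8 FPKM over 26 genes, with Mest at 241, 204.9 and 241 FPKM and Cdkn1c, a brake on the cell cycle, at 106, 105 and 121 FPKM, and the growth factor gene Igf2, an uncertain value, at 3.64, 3.94 and 8.05 FPKM. The Igf-binding protein genes Igfbp7 (108, 118 and 103.5 FPKM), Igfbp5 and Igfbp6 overlapped in range, with Igfbp5 highest in replicate 3 at 79.95, 90.3 and 129 FPKM. Mesothelial genes were highest in replicate 3 in 9 of 10 cases, against 37.7% of all genes, as for Upk1b at 15.95, 20.3 and 30.8 FPKM. Rpsa-ps10, a processed copy of a ribosomal protein gene with 75.6% of its words shared, was at 35.4, 329 and 36.9 FPKM, while Rpsa itself was at 212, 135 and 214 FPKM, so the copy was high in the library where Rpsa was low. Lars2, a mitochondrial tRNA synthetase gene, was at 37.6, 5.71 and 6.23 FPKM. It was thus high in the same library as Rn18s (4110, 522 and 490 FPKM) and 7SK. Whether these values share a source was not tested.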
